A study of Mus musculus with 6 samples.

Results

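The 38 genes described here mark postmitotic neurons: they encode proteins of the neuronal cytoskeleton, of axon growth and adhesion, of synaptic vesicles and secretory granules, and neuronal RNA-binding proteins and transcription factors. They were taken by gene name from a list drawn up with earlier results of these data known, and all 38 were found among the 56359 rows of the deposited table, which gives a level in TPM, corrected for gene length and scaled to the same total in every sample. Total RNA of 6 samples was sequenced, all from C57BL/6 mice at embryonic day 12: 3 were wild type and 3 were Tmem216-/- (the mutants below), numbered as replicates 1 to 3 of each genotype. The study asked how loss of Tmem216, a membrane protein gene of the transition zone at the base of the primary cilium, changes the embryo's transcripts. The labels give "Embryo" as the source. How the mutant allele was made, the part of the body used and whether a sample is a single animal are not given in the sources used here, so p-values measure only how these samples vary, and some of that variation may be technical.

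As a neural progenitor leaves the cell cycle it switches off progenitor genes and switches on a shared neuronal programme. RNA-binding proteins of the Elav and Rbfox families set neuronal splicing and transcript stability, stathmins, neurofilaments and microtubule-associated proteins build the axon and dendrites, and vesicle proteins prepare the cell for transmitter release. At mid-gestation in the mouse the first neurons of the spinal cord, hindbrain and ganglia extend axons, while most synapses are not yet formed. Outside neurons many of these genes are held silent by the repressor Rest, which binds a long DNA element made of a left and a right part.

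Tmem216 itself was 31.0, 30.7 and 17.4 TPM in the wild type samples against 2.25, 0.51 and 1.39 TPM in the mutants, so the groups did not overlap. It fell by 3.55 on the log2(TPM + 1) scale (SE 0.34, limma adjusted p = 0.0266, n = 3 each), and with 1 sample left out the adjusted p lay between 0.0381 and 0.189. Of 16411 genes with at least 1 TPM in at least 3 samples, 17 passed at an adjusted p under 0.05 (0.104%), 16 higher (0.0975%) and 1 lower (0.00609%). Sequencing depth is unknown, because TPM does not keep it. Correlations between samples, across genes, ran from 0.934 to 0.975. Markers of other cell types differed between samples. The summed level of 7 hepatocyte markers ran from 200.3 to 2352 TPM in wild type and from 101 to 986 TPM in Tmem216-/-, and that of 10 heart muscle markers from 38.3 to 58.9 and from 846 to 2224 TPM. All 10 heart muscle markers passed as higher and 0 of the 7 hepatocyte markers passed. The marker lists were chosen with earlier results of these data known, so these counts are descriptions only. Nppb and Mybpc3 stayed below 1 TPM in wild type and passed the filter through the mutants alone. With 1 sample left out, the highest limma adjusted p of each heart marker lay between 0.0799 and 0.189. The other marker sums overlapped between the genotypes: wild type and mutant ranges were 98.1 to 152 and 103 to 138 TPM for 11 peripheral neuron genes, 329 to 413 and 370 to 481 for 7 of neural crest, 36.8 to 55.9 and 33.2 to 37.1 for 8 of astrocytes and oligodendrocytes, and 30.9 to 43.2 and 34.0 to 36.4 for 7 of endocrine cells. They were 1054 to 1106 and 1030.0 to 1170.0 TPM for 8 mesenchyme genes, 25600.0 to 29370.0 and 20660.0 to 43140.0 for 7 erythroid genes, and 46.4 to 57.8 and 41.5 to 46.9 for 6 macrophage genes. Most of the neural crest sum came from Fabp7, which is also listed among the neural progenitor genes (249 to 347 TPM in wild type, 309 to 418 in mutants). In whole-tissue RNA, fewer cells of a type and less RNA per cell cannot be told apart.

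Neuronal transcripts were present in every sample. Tubb3, the neuronal beta-tubulin gene that is not among the 38, ran from 470 to 1227 TPM. Of the 38 genes, 13 had a mean of at least 100 TPM over the 6 samples, 7 lay between 50 and 100, 13 between 5 and 50, and 5 below 5 TPM. The highest means belonged to Uchl1, a ubiquitin hydrolase abundant in neurons (314 TPM), the growth cone stathmin Stmn2 (262), the collapsin response mediators Crmp1 (239.8) and Dpysl3 (229), the reticulon Rtn1 of the endoplasmic reticulum (199) and Stmn3 (197). Genes of synaptic vesicles and exocytosis were lower, with Syp at 34.0, Sv2a at 15.2, Snap25 at 14.6, Syn1 at 11.3 and Syt1 at 9.66 TPM. Vamp2, which is also used outside synapses, reached 68.9 TPM. The lowest were Scg2, Onecut1, Onecut2, Vsnl1 and the heavy neurofilament gene Nefh (4.08, 3.74, 2.78, 2.07 and 1.28 TPM). All 38 passed the filter on low values. Gfap and Aqp4, defining genes of astrocytes, stayed below 1 TPM in all 6 samples, and the insulin genes Ins1 and Ins2 of endocrine cells were listed at 0. They were the minority of their marker lists: 2 of 8 glial and 3 of 7 endocrine genes stayed below 1 TPM in all samples. Mbp ran from 8.69 to 11.6 TPM, Olig2 from 4.62 to 13.9 TPM and Chga from 15.5 to 27.5 TPM.

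With all 6 samples the neuronal genes were split evenly between the genotypes. Of the 38, 19 were higher in Tmem216-/- and 19 lower, with a median log2 fold change of -0.002 and values from -0.19 to 0.72. This split rested on single wild type samples: 37 were higher without wild type replicate 3 (median 0.19) and 11 without wild type replicate 2 (median -0.20). Over all tested genes 48.3% were higher with all 6 samples, and the median was -0.008. The share over all genes was 52.3% without wild type replicate 3 and 46.6% without wild type replicate 2. In limma 0 of the 38 passed at an adjusted p under 0.05, and their lowest adjusted p was 0.746. At an unadjusted p under 0.05 stood 3 members, all higher, against 4.46% of all genes in either direction, 2.24% higher and 2.22% lower. The same 3 genes, Map2, Vsnl1 and Onecut1, had every Tmem216-/- value above every wild type value, and no member had every value below. Among all genes 4.75% lay entirely above and 4.83% entirely below (9.57% together). A log2 fold change of at least 0.5 in size was reached by 3 members, Vsnl1, Syt4 and Onecut1, and by 7.37% of all genes. The moderated SE of a log2 fold change ran from 0.09 to 0.33 with a median of 0.21.

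**Figure D1:**
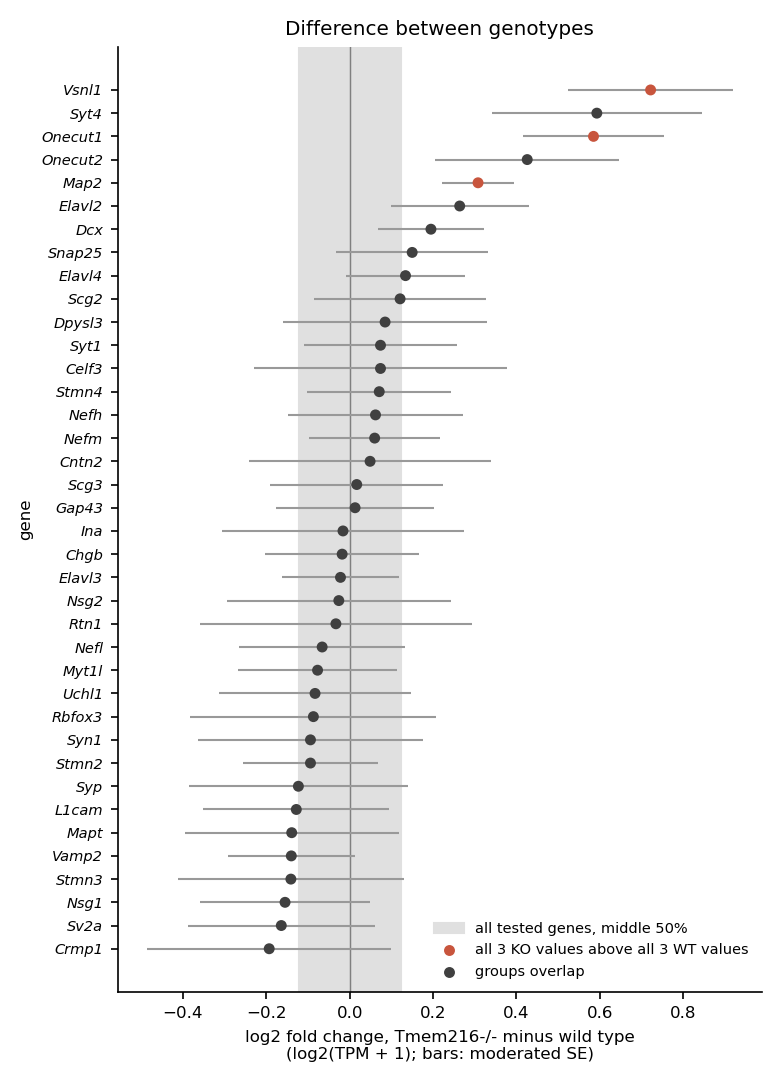
Log2 fold change of each of the 38 genes, Tmem216-/- minus wild type on the log2(TPM + 1) scale, with its moderated SE (n = 3 each), beside the middle 50% of all tested genes (grey). Map2, Vsnl1 and Onecut1 are the genes whose groups do not overlap, and no gene passed at an adjusted p under 0.05.

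Map2 encodes the main microtubule-associated protein of dendrites. It was 134, 115 and 127 TPM in the wild type samples against 151, 160 and 153 TPM in the mutants, a narrow spread in both groups with no overlap. The means were 125 ± 9.69 and 155 ± 4.38 TPM (SD, n = 3 each; log2 fold change 0.31, SE 0.09, limma adjusted p = 0.76). An exact permutation test, two-sided, gave p = 0.1, which is the lowest value 3 against 3 samples allow. Vsnl1 encodes visinin-like 1, a calcium sensor of neurons. Its values were 1.71, 0.99 and 1.27 TPM in the wild type samples against 3.0, 3.14 and 2.32 TPM in the mutants, so the lowest mutant sample was above the highest wild type one. The means were 1.32 ± 0.36 and 2.82 ± 0.44 TPM, a ratio of 2.13 (log2 fold change 0.72, SE 0.20, adjusted p = 0.746; exact permutation p = 0.1). These are low levels, close to the filter.

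Onecut1 encodes a cut-homeodomain transcription factor of motor neurons, interneurons and liver. It was 2.28, 3.12 and 2.99 TPM in the wild type samples against 4.20, 5.04 and 4.80 TPM in the mutants, again without overlap. The means were 2.80 ± 0.45 and 4.68 ± 0.43 TPM, a ratio of 1.67 (log2 fold change 0.58, SE 0.17, adjusted p = 0.796; exact permutation p = 0.1). Its relative Onecut2 was 1.97, 3.08 and 1.69 TPM against 2.81, 4.0 and 3.15 TPM, and wild type replicate 2 lay inside the mutant range (0.43, SE 0.22, adjusted p = 0.983). Myt1l, a zinc finger repressor of non-neuronal genes, differed by -0.08 with overlapping values from 5.87 to 8.68 TPM. With any 1 sample left out the log2 fold change stayed between 0.25 and 0.36 for Map2, between 0.62 and 0.84 for Vsnl1 and between 0.48 and 0.65 for Onecut1. No such fit brought a member below an adjusted p of 0.4. Beside these genes, the heart muscle marker sum was higher in all 3 mutants and the hepatocyte sum was lower in the mutants on average (986, 101 and 138 TPM against 1966, 2352 and 200.3 TPM). The part of either tissue in the values of Map2, Vsnl1 and Onecut1 was not tested.

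**Figure D2:**
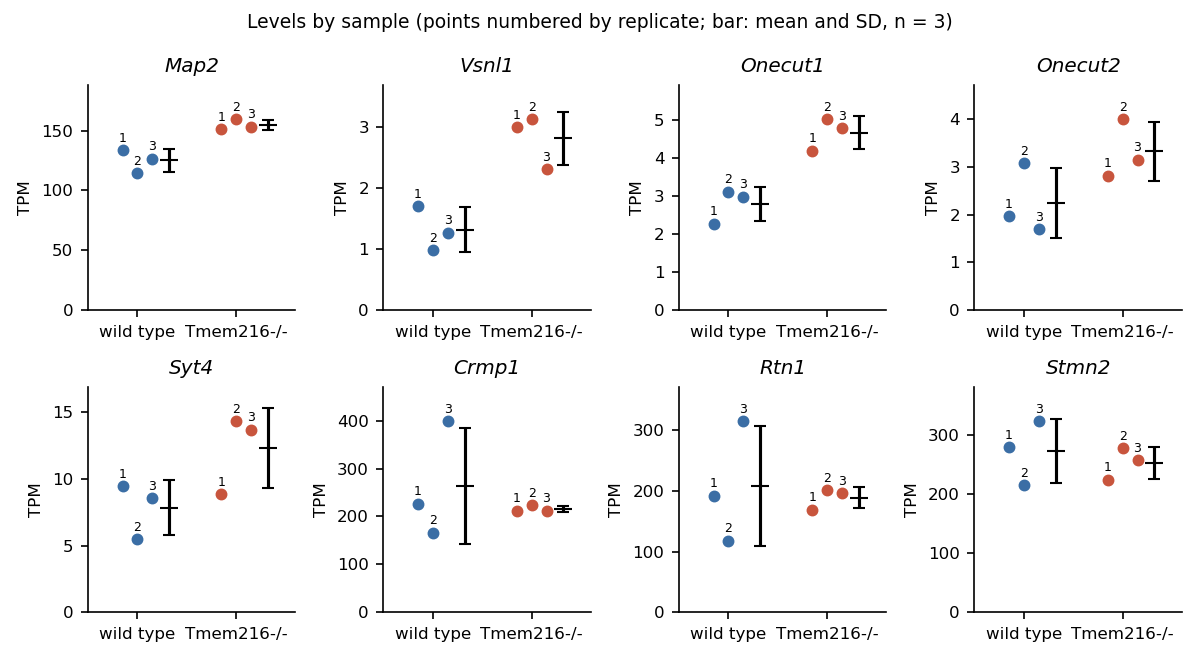
TPM of 8 genes in each sample, with points numbered by replicate and bars showing mean and SD (n = 3 each). Map2, Vsnl1 and Onecut1 separate by genotype, while Crmp1, Rtn1 and Stmn2 spread more widely among the wild type samples than between the groups.

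The start regions of these 3 genes are shown because they are the members whose groups do not overlap. RefSeq promoters (250 bases before to 50 after the start, build GRCm38.p6, which is mm10) were held for 25 of the 38 members. The starts farthest from the annotated 5' end of the gene were those of Rbfox3, L1cam and Elavl2 (150556, 15271 and 801 bases). They are kept in the counts below. For the genes whose sequence is shown the distance was 0 to 94 bases. Capitals mark matches on either strand to any of 6 motifs. They are the TATA box TATAAA, the E-box CAGCTG, which proneural factors bind, a further E-box of the same class written CATCTG, the core ATTGAT bound by Onecut factors, the left part of the Rest element, TTCAGCACC, and a piece of its right part, which reads GGACAG.
Map2 (chr1:66175079-66175378, plus strand): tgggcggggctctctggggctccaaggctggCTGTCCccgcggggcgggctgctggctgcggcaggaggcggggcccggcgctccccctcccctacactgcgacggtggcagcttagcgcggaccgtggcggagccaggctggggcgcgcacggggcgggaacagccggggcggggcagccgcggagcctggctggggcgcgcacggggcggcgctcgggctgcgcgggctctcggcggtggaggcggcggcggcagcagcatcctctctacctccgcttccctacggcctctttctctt
Vsnl1 (chr12:11436529-11436828, minus strand): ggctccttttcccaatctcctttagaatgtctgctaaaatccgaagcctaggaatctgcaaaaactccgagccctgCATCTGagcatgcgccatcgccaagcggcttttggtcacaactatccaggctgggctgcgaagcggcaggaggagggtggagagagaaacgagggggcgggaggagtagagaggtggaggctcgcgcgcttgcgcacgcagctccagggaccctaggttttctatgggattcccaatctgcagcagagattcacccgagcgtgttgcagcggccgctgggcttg
Onecut1 (chr9:74861671-74861970, plus strand): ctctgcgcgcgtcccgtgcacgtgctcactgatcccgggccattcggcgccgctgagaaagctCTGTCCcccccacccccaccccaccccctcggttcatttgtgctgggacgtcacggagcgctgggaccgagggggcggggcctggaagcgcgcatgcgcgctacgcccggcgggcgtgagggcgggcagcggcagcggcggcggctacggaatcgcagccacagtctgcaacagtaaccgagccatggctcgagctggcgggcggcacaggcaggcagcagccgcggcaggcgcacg
The Map2 and Onecut1 windows were rich in G and C (77.7% and 73.0%, with 37 and 38 CpG pairs) and held a single capitalised match each, to GGACAG. The Vsnl1 window had 58.7% G and C, 18 CpG pairs and a match to CATCTG. A match describes letters only. GGACAG occurred in 8 of the 25 member promoters (32%) and in 22.4% of 20595 promoters, taken as 1 per gene.

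The left part of the Rest element, TTCAGCACC, occurred in 2 of the 25 member promoters (8%), those of Scg2 and Syn1, and in 76 of all 20595 (0.369%). Both are shown because this left part lies in their windows, while the searched piece of the right part was matched in Scg2 and not in Syn1.
Scg2 (chr1:79439977-79440276, minus strand): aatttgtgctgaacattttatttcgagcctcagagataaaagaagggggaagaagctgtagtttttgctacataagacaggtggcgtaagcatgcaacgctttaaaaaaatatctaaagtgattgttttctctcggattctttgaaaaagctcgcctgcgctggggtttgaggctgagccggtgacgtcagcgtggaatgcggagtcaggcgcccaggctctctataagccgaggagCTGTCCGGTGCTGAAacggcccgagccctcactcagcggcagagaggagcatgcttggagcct
Syn1 (chrX:20920869-20921168, minus strand): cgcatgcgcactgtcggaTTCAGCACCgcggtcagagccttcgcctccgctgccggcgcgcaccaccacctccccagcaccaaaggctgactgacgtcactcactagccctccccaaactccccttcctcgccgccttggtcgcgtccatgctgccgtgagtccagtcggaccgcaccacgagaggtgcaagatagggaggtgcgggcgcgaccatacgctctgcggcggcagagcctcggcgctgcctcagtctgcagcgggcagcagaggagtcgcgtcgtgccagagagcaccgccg
In Scg2 the 2 searched parts abut on the opposite strand, in the 15 letters CTGTCCGGTGCTGAA. Scg2, a granin of dense-core vesicles, was 3.9, 2.84 and 4.96 TPM in the wild type samples against 4.63, 3.74 and 4.4 TPM in the mutants (log2 fold change 0.12). Syn1, the vesicle phosphoprotein synapsin, was 11.3, 7.51 and 17.3 TPM against 10.5, 10.9 and 10.5 TPM (-0.09). All mutant values of both genes fell inside the wild type range. The E-box CAGCTG was in 7 member promoters (28%, against 15.6% of all) and CATCTG in 6 (24%, against 15.9%), TATAAA in 3 (12%, against 13.2%) and ATTGAT in 1, that of Myt1l (4%, against 7.01%).

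Of the 13 cytoskeleton and axon growth genes 7 were higher and 6 lower, with a median log2 fold change of 0.01, and Map2 was the only one at an unadjusted p under 0.05. Stmn2, a microtubule-destabilising stathmin, was 279, 215 and 323 TPM in the wild type samples against 224, 277 and 257 TPM in the mutants (-0.09, SE 0.16, adjusted p = 0.983). Stmn3, a related stathmin, was 196, 135 and 301 TPM against 170, 201 and 174 TPM (-0.14), and Stmn4 differed by 0.07. Gap43, a growth cone phosphoprotein, differed by 0.01. Dcx, the doublecortin of migrating neurons, was 62.9, 50.05 and 65.5 TPM against 61.8, 72.4 and 69.7 TPM (0.20, SE 0.13). The neurofilament genes Nefl and Nefm, which together with Ina form the axonal filament network, differed by -0.07 and 0.06, and the heavy chain gene Nefh by 0.06. Annotated exons of Nefl and Nefm share 1108 bases on opposite strands, and without a stated strand in counting their reads could not be told apart there. Ina was 147, 103 and 246 TPM against 146, 153 and 161 TPM (-0.02, SE 0.29). Crmp1 was 227, 166 and 399 TPM in the wild type samples against 212, 223 and 212 TPM in the mutants. Its wild type samples differed 2.4-fold and its mutant samples 1.05-fold, and its log2 fold change of -0.19 (SE 0.29) was the lowest of the 38. Dpysl3, its relative, was 232, 147 and 302 TPM against 217, 233 and 242 TPM (0.09). In both genes the mutants lay between the wild type extremes. Mapt, the axonal tau gene, was 55.5, 39.9 and 86.6 TPM against 52.1, 52.9 and 52.0 TPM (-0.14). The axonal adhesion genes L1cam and Cntn2 differed by -0.13 and 0.05.

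Of the 7 vesicle and exocytosis genes 3 were higher, with a median of -0.09 and 0 at an unadjusted p under 0.05. Syt4, a synaptotagmin of dense-core vesicles, was 9.41, 5.49 and 8.52 TPM in the wild type samples against 8.85, 14.3 and 13.7 TPM in the mutants. Replicates 2 and 3 of the mutant were above all wild type samples and replicate 1 was among them (0.59, SE 0.25, adjusted p = 0.983). Snap25, a SNARE protein of the plasma membrane, was 13.5, 13.02 and 14.5 TPM against 12.1, 19.7 and 14.97 TPM (0.15). Syt1, the calcium sensor of release, differed by 0.07. Syp, Syn1, Vamp2 and Sv2a, all vesicle membrane or coat proteins, differed by -0.12, -0.09, -0.14 and -0.16. Without wild type replicate 3, the highest sample for all 4, the values were 0.15, 0.19, 0.03 and 0.08. Without wild type replicate 2, the lowest sample for all 4, they were -0.32, -0.37, -0.23 and -0.34. The 5 secretory granule and endosome genes (Nsg1, Nsg2, Scg2, Scg3 and Chgb) had log2 fold changes from -0.16 to 0.12, and all mutant values of all 5 lay within the wild type range. Uchl1 was 299.97, 231 and 457 TPM against 288, 305 and 303 TPM (-0.08) and Rtn1 192, 118 and 315 TPM against 169, 201 and 196 TPM (-0.03). For both, wild type replicate 3 was the highest sample and replicate 2 the lowest.

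The RNA-binding proteins behaved differently from one another among the wild type samples. Elavl2 was 26.0, 27.8 and 19.1 TPM in the wild type samples against 25.7, 29.8 and 31.9 TPM in the mutants, with wild type replicate 3 the lowest of the 6 (0.26, SE 0.17, adjusted p = 0.983). Elavl4 also had its lowest value in wild type replicate 3 (33.8, 27.5 and 25.1 TPM, against 29.7, 35.6 and 29.4 TPM; log2 fold change 0.13). Elavl3 was highest there (58.0, 52.6 and 74.9 TPM, against 61.0, 62.9 and 56.9 TPM; -0.02). Celf3, a neuronal splicing regulator, was 80.9, 52.6 and 132 TPM against 88.6, 82.0 and 91.0 TPM (0.07). Rbfox3, the gene of the NeuN antigen, was 9.58, 7.40 and 18.0 TPM against 10.6, 10.4 and 9.70 TPM (-0.09). These 5 genes did not rank the wild type samples in the same order.

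**Figure D3:**
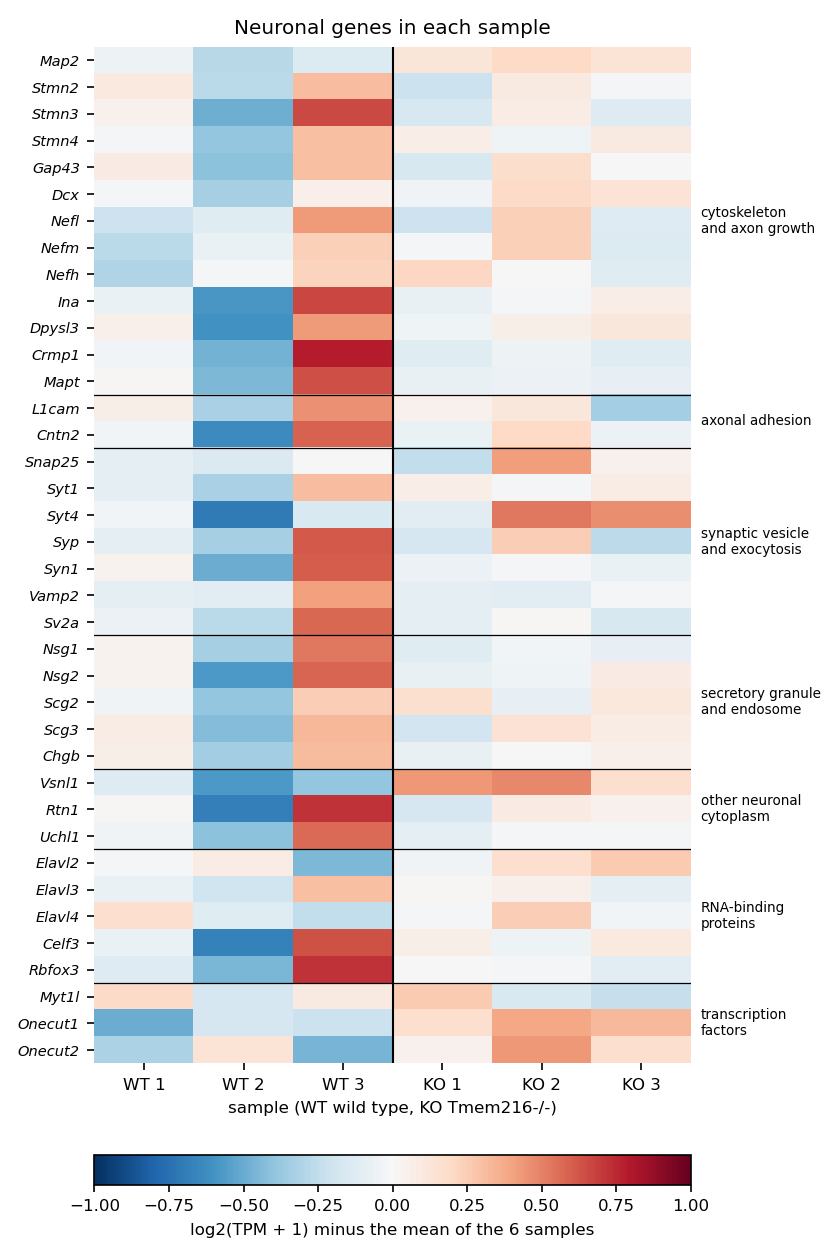
Log2(TPM + 1) of each gene in each sample minus its mean over the 6 samples, grouped by role. Wild type replicate 2 is mostly blue (low) and wild type replicate 3 mostly red (high), with Elavl2, Elavl4 and Onecut2 lowest in replicate 3, while the Tmem216-/- columns are pale.

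For most of the neuronal genes the wild type samples differed more among themselves than the mutants did. The median level over the 38 genes was 53.0, 36.3 and 70.2 TPM in wild type replicates 1, 2 and 3, and 50.6, 55.9 and 50.7 TPM in Tmem216-/-. Wild type replicate 3 was the highest of all 6 samples for 27 of the 38 genes (35.3% of all tested genes), and wild type replicate 2 the lowest for 28 (25.5% of all). Within wild type, 27 had replicate 3 highest and replicate 2 lowest (32.8% of all). All 3 mutant values fell within the wild type range for 26 (41.1% of all). The highest wild type value was at least 2-fold the lowest for 11 members, led by Rtn1 (2.66-fold), Celf3 (2.52-fold), Rbfox3 (2.44-fold) and Crmp1 (2.40-fold), and for 20.5% of all genes. No member reached 2-fold among the Tmem216-/- samples (10.4% of all genes), where the widest was Snap25 (1.63-fold). The SD of log2(TPM + 1) was larger in wild type for 36 of the 38 (72.9% of all genes), with medians of 0.35 in wild type and 0.12 in Tmem216-/-. Over all genes the medians were 0.24 and 0.12. Spread was not tested with 3 samples a group.

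In the fits without wild type replicate 3 and without replicate 2, where the members' medians were 0.19 and -0.20, the medians over all genes were 0.01 and -0.02. None of the 38 passed in either fit, where 1 and 16 genes passed over all tested genes. Wild type replicate 3 also had the lowest hepatocyte marker sum of its group (200.3 TPM) and replicate 2 the highest (2352 TPM). Tmem216-/- replicates 1, 2 and 3 had hepatocyte sums of 986, 101 and 138 TPM and neuronal medians of 50.6, 55.9 and 50.7 TPM. The hepatocyte markers did not all follow the order of the sum. Within wild type, Alb and Afp were highest in replicate 2 (Afp 1228 TPM, against 669 TPM in replicate 1). Apoa1, Apoa2, Serpina1a and Fgb were highest in replicate 1 and lowest in replicate 3. Ttr was at 140 TPM in wild type replicate 3 and 73.0 in replicate 2. It made up most of the sum in wild type replicate 3 and in Tmem216-/- replicates 2 and 3 (61.4 and 93.9 TPM). The part of tissue makeup in the neuronal values was not tested.

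Other gene lists were ranked over the samples in the same way, where 35.3% of all genes were highest in wild type replicate 3 and 25.5% lowest in wild type replicate 2. Of 27 further cytoskeletal and RNA genes of neurons, 21 were highest in wild type replicate 3 and 22 lowest in wild type replicate 2. The corresponding counts were 22 and 15 for 34 vesicle, release and synapse genes, 15 and 14 for 21 neural progenitor genes, and 10 and 15 for the 23 early postmitotic and neurogenic factors. For 8 mesenchyme markers they were 3 and 3, and for 10 genes of Rest and its partners 4 and 4. As medians relative to the mean of the 6 samples, the 38 genes stood at -0.03, -0.34 and 0.33 in wild type replicates 1 to 3 and at -0.06, 0.07 and -0.003 in Tmem216-/-. The progenitor genes stood at -0.05, -0.26 and 0.33 and at -0.06, 0.08 and 0.03. The peripheral neuron markers, among them Prph, followed another order, with wild type replicate 1 the lowest (-0.24, -0.04 and 0.28).

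Base composition moved with the wild type pattern. The GC content of the longest annotated transcript was known for all 38 members and 96.6% of tested genes. Over all genes, wild type replicate 3 stood 0.44 below the 6-sample mean in the decile of lowest GC and 0.30 above it in the decile of highest GC. Wild type replicate 2 ran the other way, from 0.29 to -0.15. The other 4 samples stayed within -0.08 and 0.09 in every decile. Across the 38 genes the difference between wild type replicates 3 and 2 rose with GC (Pearson r = 0.65, Spearman rho = 0.61, across genes that share the same libraries). The 13 members of lowest GC (38.5 to 46.8%), among them Elavl2, Elavl4, Onecut2 and Vsnl1, had a median ratio of replicate 3 to replicate 2 of 1.31. The 13 of highest GC (54.1 to 58.6%), among them Rtn1, Crmp1, Celf3 and Rbfox3, had a median ratio of 2.30. The genotype comparison varied with GC as well. Of the 13 low-GC members 10 were higher in Tmem216-/- (median 0.13), and of the 13 high-GC members 4 were (median -0.03). Over all 38 the correlation of GC with the log2 fold change was -0.53, against -0.19 over all tested genes.

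**Figure D4:**
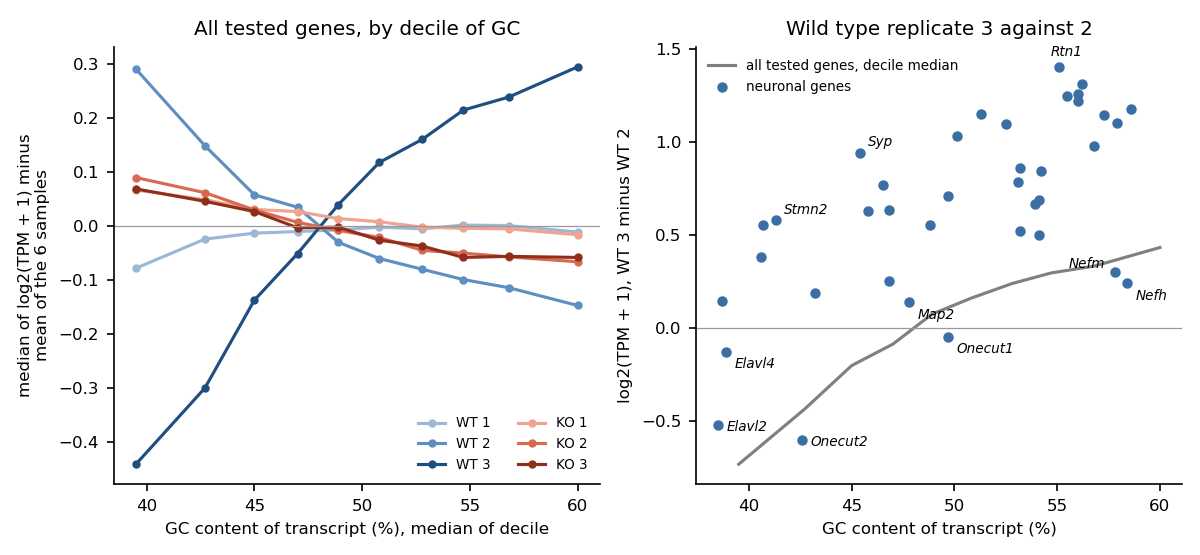
Left, median of log2(TPM + 1) minus the 6-sample mean in each decile of transcript GC content over all tested genes, 1 line per sample. Right, the difference between wild type replicates 3 and 2 on the log2 scale for each of the 38 genes against GC content, with the decile medians of all genes as a line. Most neuronal genes lie above the line, and Elavl2, Elavl4, Onecut1 and Onecut2 lie below 0.

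Each sample was also centred within 20 bins of GC content, a step chosen after these values were seen. The gap between the wild type samples remained, and its cause was not tested. The median difference of replicate 3 minus replicate 2 over the 38 genes was 0.68 before and 0.72 after centring, while over all genes it went from 0.05 to -0.005. Replicate 3 was then highest for 26 of the 38 (25.5% of all genes) and replicate 2 lowest for 30 (24.4%). The spread of that difference over members went from an SD of 0.49 to 0.37, and its correlation with GC from 0.65 to -0.17. The value for Elavl2 went from -0.52 to 0.30, and that for Elavl4 from -0.13 to 0.69. After centring 23 of the 38 were higher in Tmem216-/-, the median log2 fold change was 0.02, and in limma 0 passed, with a lowest adjusted p of 0.569. The log2 fold changes of Map2, Onecut1 and Vsnl1 were 0.29, 0.60 and 0.62, and the mutant values of these 3 and of Onecut2 (0.31) lay above all wild type values. Among all genes 5.61% did so after centring.

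**Figure D5:**
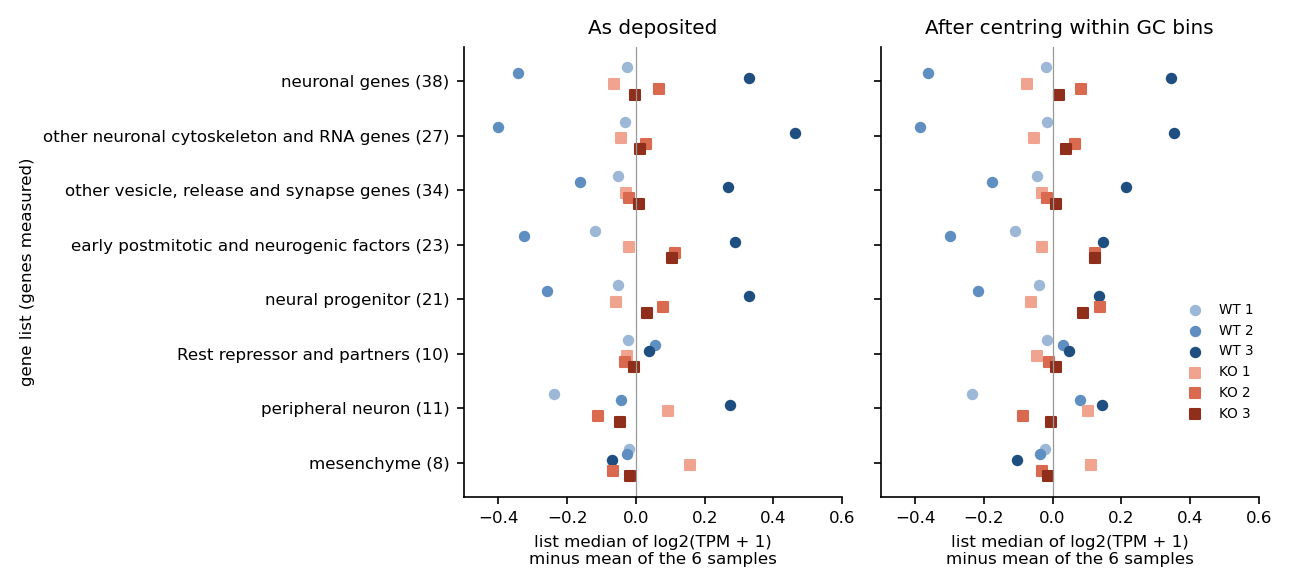
Median over the genes of each list of log2(TPM + 1) minus the 6-sample mean, by sample, before (left) and after (right) centring within GC bins. Wild type replicates 2 and 3 stand apart for the 38 neuronal genes in both panels (-0.34 and 0.33, then -0.36 and 0.34), and the Tmem216-/- samples lie between them.

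Other genes of the neuronal programme were compared in the same fit. In limma 0 of the 27 further cytoskeletal and RNA genes, 0 of the 34 vesicle and synapse genes, 0 of the 23 early postmitotic and neurogenic factors, 0 of the 21 progenitor genes and 0 of the 10 genes of Rest and its partners passed. Their median log2 fold changes were -0.01, -0.06, 0.10, 0.09 and -0.01. At an unadjusted p under 0.05 these lists held 1, 0, 8, 1 and 0 genes, against 4.46% of all tested genes. Of the 8 early factors, out of 23, 5 were higher and 3 lower. Celf4, an RNA-binding protein gene, was 23.5, 21.6 and 26.5 TPM in the wild type samples against 29.4, 28.9 and 33.8 TPM in the mutants (0.35, adjusted p = 0.983). Pou3f2, a POU factor of migrating neurons, was 18.6, 18.3 and 18.9 TPM against 24.3, 29.4 and 30.8 TPM (0.57, adjusted p = 0.367). Neurod6, a bHLH factor of cortical neurons, was 6.20, 2.73 and 3.77 TPM against 1.56, 0.43 and 0.50 TPM (-1.51, adjusted p = 0.44), and Ebf2, an early neuronal factor, was 20.1, 21.7 and 24.7 TPM against 25.9, 30.6 and 30.0 TPM (0.36). These 3 factors were named for having the smallest p of their list. Of all 23 factors on it, 4 had every mutant value above and 1 every mutant value below the wild type values, against 9.57% of all genes in either direction. Nova1 and Ptbp2, splicing regulators, differed by 0.29 and 0.25. Among synapse genes Rab3c, a vesicle GTPase, differed by 0.28 and Syt2, a synaptotagmin, by -0.47. Among progenitor genes the endothelin receptor Ednrb differed by 0.32, the Notch target Hes1 by -0.31 and the membrane protein Prom1 by 0.17. Of the Rest partners, the corepressor Sin3a differed by -0.22, the deacetylase Hdac2 by 0.16 and the methyltransferase Ehmt2 by -0.16.

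Some values carry a limit of annotation. Exons of Map2 share 124 bases with the antisense gene Gm10558, which stayed at or below 0.23 TPM, and those of Onecut1 share 2171 bases with the long non-coding gene Gm20649 on the same strand, at or below 0.21 TPM. Exons of Ina overlap Nt5c2 by 456 bases and those of Nsg1 overlap Stx18 by 574 bases, both on the opposite strand and both expressed above 30 TPM. In mm10, Map2 (ENSMUSG00000015222) lies on the plus strand of chromosome 1 at 66175273 to 66442583, Vsnl1 (ENSMUSG00000054459) spans 11325242 to 11436613 of chromosome 12, minus strand, and Onecut1 (ENSMUSG00000043013) spans 74861921 to 74891781 of chromosome 9, plus strand, all protein coding.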

How the data were processed

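RNA sequencing of total RNA from 6 samples was deposited by the authors as a TPM value for each gene. Per the submitters' processing notes, CASAVA 1.8, HISAT2, StringTie and RSEM were used with build mm10; per the labels' protocols, libraries were made with a TruSeq kit. The length column of the deposited table was not used in any test. Besides the 6 columns named for samples, 2 more numeric columns, which differ from the means of the genotypes by at most 3.3e-06, were left out. All 27 gene names turned into dates were restored from their identifiers.

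Values were log2(TPM + 1) for 16411 genes with at least 1 TPM in at least 3 samples. The genotypes were compared in limma with a trend, two-sided, with Benjamini-Hochberg adjustment over all 16411 genes (R 4.3.3, limma 3.58.1, Python 3.11.15, scipy 1.17.1). A fold change on this scale understates that of low genes. The 38 genes, the 5 related lists and 9 marker lists were chosen with earlier results of these data known. Values by sample are given for members whose groups do not overlap, the 6 smallest p, the 6 highest means, the 4 widest within wild type, and others by role. From each related list up to 3 genes of smallest p are named, and 1 of these is not reported here. GC content came from the longest GENCODE M21 transcript of each gene. Alternatives were other pseudocounts, filters, scalings and eBayes settings, a replicate block, a covariate from 4 Y-linked genes for sex, each sample left out and, chosen after seeing the data, GC-bin centring. The fit and the centring were tested on simulated data.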

Additional observations from a re-analysis of the deposited data

How the results depend on the processing

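In every fit run, 0 of the 38 neuronal genes passed limma, at an adjusted p no lower than 0.322, and 1 to 4 stood at an unadjusted p under 0.05 (1 with the filter at 5 TPM, which tests 33 of them). Over all genes the number at an unadjusted p under 0.05 ran from 415 (without Tmem216-/- replicate 2) to 1898 (without wild type replicate 2). The median log2 fold change of the members ran from -0.20 to 0.19 with single samples left out and from -0.09 (sex covariate) to 0.02 (GC-bin centring) otherwise. The number of members higher in Tmem216-/- was 12 with the sex covariate and ran from 11 to 37 with single samples left out, and from 9 to 37 when GC-bin centring was added. Over all genes the share higher was 46.1% with the sex covariate. It ran from 46.6% to 52.3% with single samples left out, and from 48.4% to 50.4% when GC-bin centring was added. The count of members whose groups do not overlap ran from 3 to 10 with single samples left out, where smaller groups overlap less easily. The share over all genes was not taken for these smaller groups, so this count has no background to be read against. Over all genes 0 passed with no filter (1207 at an unadjusted p under 0.05), and 0 to 20 with single samples left out: 0 without wild type replicate 1, 1 without wild type replicate 3, 5 and 4 without Tmem216-/- replicates 2 and 3, against 505, 1262, 415 and 425 genes at an unadjusted p under 0.05. Tmem216 no longer passed with a pseudocount of 0.1 (-4.31, adjusted p = 0.0667), without a filter (-3.55, 0.0874) and with a sex term (-3.56, 0.0812), and ran from -3.81 to -3.25 with single samples left out. The causes were not tested. None of the related lists had a gene that passed in these fits. The fits that joined GC-bin centring with a left-out sample were not counted for the related lists.

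Many members changed sign between fits, and not only those near 0. All 19 that were lower with all 6 samples, Crmp1 included, were above 0 in some fit with 1 sample left out. Several of the 19 higher ones fell below 0. With the sex covariate Stmn4 was at -0.041, Gap43 at -0.035, Dpysl3 at -0.043, Cntn2 at -0.074, Syt1 at -0.03, Scg3 at -0.048 and Celf3 at -0.13. With quantile scaling Ina was at 0.006, Nsg2 at 0.002 and Elavl3 at 0.004. With GC-bin centring Ina was at 0.067, Snap25 at -0.007, Nsg2 at 0.013, Scg3 at -0.008, Chgb at 0.051, Rtn1 at 0.051, Uchl1 at 0.002, Elavl3 at 0.047, Elavl4 at -0.023 and Rbfox3 at 0.006. With single samples left out, the cytoskeletal and adhesion genes ran from -0.25 to 0.039 (Stmn2), -0.42 to 0.15 (Stmn3), -0.11 to 0.24 (Stmn4), -0.19 to 0.17 (Gap43), -0.20 to 0.13 (Nefl), -0.059 to 0.19 (Nefm), -0.071 to 0.19 (Nefh), -0.31 to 0.32 (Ina), -0.20 to 0.32 (Dpysl3), -0.48 to 0.15 (Crmp1), -0.40 to 0.15 (Mapt), -0.32 to 0.07 (L1cam) and -0.26 to 0.35 (Cntn2). The vesicle and exocytosis genes ran from -0.024 to 0.31 (Snap25), -0.068 to 0.25 (Syt1), -0.32 to 0.15 (Syp), -0.37 to 0.19 (Syn1), -0.23 to 0.031 (Vamp2) and -0.34 to 0.084 (Sv2a). The granule and endosome genes ran from -0.36 to 0.072 (Nsg1), -0.32 to 0.26 (Nsg2), -0.044 to 0.27 (Scg2), -0.20 to 0.19 (Scg3) and -0.20 to 0.14 (Chgb). The others ran from -0.38 to 0.32 (Rtn1), -0.31 to 0.18 (Uchl1), -0.13 to 0.12 (Elavl3), -0.25 to 0.41 (Celf3), -0.34 to 0.25 (Rbfox3) and -0.23 to 0.019 (Myt1l).

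Replicate numbers are shared by the groups. Deviations from the group means, over 16411 genes, correlated at 0.016, -0.093 and 0.101 between same-numbered samples 1, 2 and 3. Between differently numbered samples the correlations ran from -0.147 to 0.142. The samples were not paired in the main fit, and whether same-numbered samples share a batch cannot be told from these values. With the replicate block 0 members passed (lowest adjusted p 0.999), their median was -0.002 and 25 genes passed in all. TPM keeps no read depth, so no counting error can be given for low genes such as Vsnl1 and Onecut1.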
